A study of Mus musculus with 27 samples.

Results

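Pcdh17 (ENSMUSG00000035566), the gene for protocadherin 17, was followed across a dose series of TCDD in the colonic epithelium of male mice. It is 1 of 46078 gene rows in the count tables and 1 of 16496 genes with enough counts to be tested. It was selected on its measured counts, chosen for their fall with dose in these same mice, so its levels and fold changes are a description and no p-value is attached to them. TCDD, a tetrachlorinated dioxin, is a persistent ligand of the aryl hydrocarbon receptor (AhR), and the dose series asks at which doses a transcript responds.

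Scraped colonic epithelium was sequenced from 27 male C57BL/6 mice, 3 in each of 9 groups. The vehicle group received sesame oil, and the other 8 groups received TCDD in that oil, at 0.01, 0.1, 1 or 10 μg/kg or at 0.03, 0.3, 3 or 30 μg/kg. Each mouse was gavaged every 4 days from day 28 of age, 7 gavages in all, and was sampled on day 28 of dosing, at 56 days of age. The samples are scrapings and not sorted cells, and no source states that mice were pooled.

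Protocadherin 17 is a non-clustered protocadherin of the δ2 group, a cell surface protein that binds copies of itself on neighbouring cells. Its cytoplasmic tail recruits the WAVE complex and proteins of the Ena/VASP and lamellipodin group, which promote branched and elongated actin filaments at cell contacts. It is best known from neurons, where it acts at contacts between extending axons and at presynaptic sites. AhR is a transcription factor of the bHLH-PAS family. Enzymes that metabolise foreign compounds, Cyp1a1 among them, are its classic targets, and the DNA motif it recognises with its partner ARNT has the core GCGTG.

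In GENCODE M21 on GRCm38, the build named in the submitters' processing notes, Pcdh17 lies at chr14:84443563-84539002 on the plus strand. Its longer annotated transcript, Pcdh17-201, has 4 exons and 11451 bases. The antisense gene 9630013A20Rik lies inside it on the minus strand at chr14:84458639-84476424 and has no row in the count tables. It falls wholly within the intron between exons 1 and 2 of Pcdh17, which runs from the end of exon 1 at 84448653 to the start of exon 2 at 84477323, and overlaps no annotated exon of either transcript.

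The 250 bases before the RefSeq start of Pcdh17 and of Cyp1a1, the AhR target whose rise is set beside the fall of Pcdh17, are shown because they can be read directly for the dioxin response element core. Both are from GRCm38.p6 and written on the strand of the gene, chr14:84443313-84443562 for Pcdh17 and chr9:57697363-57697612 for Cyp1a1. Capitals mark GCGTG or its reverse complement CACGC.
Pcdh17: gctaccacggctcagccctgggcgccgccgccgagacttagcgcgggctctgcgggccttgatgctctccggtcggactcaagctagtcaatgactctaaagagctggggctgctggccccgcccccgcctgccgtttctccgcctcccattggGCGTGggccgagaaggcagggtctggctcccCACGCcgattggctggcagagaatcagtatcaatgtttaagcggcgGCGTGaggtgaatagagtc
Cyp1a1: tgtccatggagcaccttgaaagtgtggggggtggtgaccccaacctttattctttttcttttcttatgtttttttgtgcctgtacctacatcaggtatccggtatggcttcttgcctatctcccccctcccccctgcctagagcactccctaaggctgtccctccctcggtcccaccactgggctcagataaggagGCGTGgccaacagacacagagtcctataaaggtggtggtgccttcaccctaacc

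The Pcdh17 window held 3 cores, whose leftmost letters as printed lie 96, 65 and 19 bases before the start, the middle one on the minus strand. The Cyp1a1 window held 1 core, 54 bases before the start. Over 32841 RefSeq promoters of the same length, searched on both strands, 28.2% held at least 1 core and 2.77% held at least 3. The longer motif TNGCGTG, which contains the core, was found in 4.10% of these promoters and in neither of the windows shown. The Pcdh17 window has a GC content of 64.8%, against a median of 52.4% over all windows. These are matches of letters and no binding was measured.

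Libraries held 9305441 to 14371035 counts in genes, with a median of 11651026. Levels are given as CPM, counts scaled to library size with TMM factors that ran from 0.957 to 1.05. Among the 27 pairs of mice within a group, counts differed by more than sampling noise in every pair (chi-square per degree of freedom at least 5.84). Colon epithelial markers were high, with a summed level in vehicle mice of 50219.7 to 58473.9 CPM for 10 goblet cell genes and 7546 to 8045 CPM for 8 absorptive colonocyte genes, but smooth muscle genes were present as well, at 49.3 to 95.6 CPM. The index barcodes of the libraries, 16 in number, were used a second time for 11 mice. First and second use were assigned in the order of mouse numbers, which rise with dose. Whether they mark a batch of libraries or of sequencing is not stated in the sources used here. All mice of the vehicle to 0.3 μg/kg groups and 1 mouse at 1 μg/kg belong to the first use of the barcodes, whereas 2 mice at 1 μg/kg and every mouse at 3, 10 and 30 μg/kg belong to the second. These rounds of barcodes follow the dose. The step from 1 to 3 μg/kg cannot be told apart from a step between rounds, except through the 2 second-round mice at 1 μg/kg. A term for the round in a fit is likewise estimated only from the 3 mice at 1 μg/kg, 1 against 2. Results with that term carry the difference among these 3 mice to every higher dose. With it, a value at 1 μg/kg rests on the 1 first-round mouse.

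In the 3 vehicle mice, Pcdh17 had 353, 317 and 338 counts, or 34.7, 33.4 and 33.2 CPM. The vehicle mice sat very close together: their coefficient of variation was 2.48%, below the 5.46% that counting error alone gives at this depth. A range this narrow is a strict yardstick, and mice at the lowest doses fell on both sides of it.

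At 0.01 μg/kg the 3 mice had 27.8, 40.4 and 48.99 CPM, 1 below and 2 above the vehicle range. At 0.03 μg/kg they had 31.7, 29.5 and 39.3 CPM, 2 below and 1 above. At 0.1 μg/kg they had 44.8, 37.9 and 31.7 CPM, 1 below and 2 above. No shift in 1 direction was seen over these 3 doses, and their log2 fold changes against vehicle were 0.21, -0.014 and 0.17, each with a standard error of 0.16.

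At 0.3 μg/kg the mice had 25.9, 29.9 and 26.7 CPM, and this was the lowest dose with all 3 mice below the vehicle range. At 1 μg/kg they had 30.9, 26.98 and 25.03 CPM, again all below it. The group means were 27.5 ± 2.14 and 27.6 ± 2.99 CPM (SD, n = 3), or 81.5% and 81.8% of the vehicle mean, with log2 fold changes of -0.30 (SE 0.16) and -0.29 (SE 0.16). With the barcode round as a term in the fit, the latter was -0.13. The 2 doses overlapped and gave no further fall from one to the next. When the yardstick is the range of all 12 mice of the vehicle, 0.01, 0.03 and 0.1 μg/kg groups, 27.8 to 48.99 CPM, 2 of 3 mice at 0.3 μg/kg and 2 of 3 at 1 μg/kg lay below it.

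At 3 μg/kg the mice had 90, 110 and 148 counts, or 8.27, 9.43 and 11.5 CPM. All 3 lay far under every mouse of the lower doses, and this was the first dose with every mouse below the wider range. The mean of 9.73 ± 1.62 CPM (SD, n = 3) was 28.8% of the vehicle mean, a 3.46-fold lower level (log2 fold change -1.79, SE 0.18).

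At 10 μg/kg the mice had 18, 15 and 16 counts, or 1.54, 1.28 and 1.19 CPM, with a mean of 1.34 ± 0.178 CPM (SD, n = 3). At 30 μg/kg they had 19, 11 and 10 counts, or 1.37, 0.920 and 0.862 CPM, with a mean of 1.05 ± 0.276 CPM (SD, n = 3). The ranges of these 2 doses overlapped, and both lay below every mouse at 3 μg/kg. What remained was 3.96% and 3.11% of the vehicle mean, which is 25.1-fold lower (log2 fold change -4.65, SE 0.22) and 31.4-fold lower (-4.97, SE 0.23). The transcript was still counted in each of these mice. The lowest mouse, with 10 counts, has an exact 95% binomial interval of 0.413 to 1.59 CPM, which covers counting error only.

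**Figure D1:**
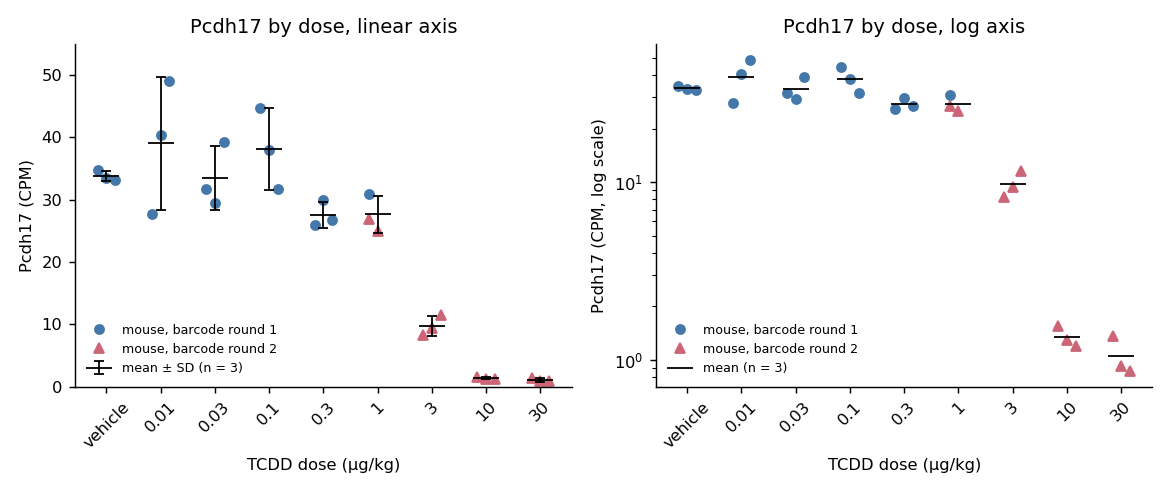
Pcdh17 level in CPM (left, linear axis with mean ± SD; right, log axis with the mean) for each of 27 mice against TCDD dose in μg/kg, with circles for the first and triangles for the second use of the index barcodes. The 3 mice at 3 μg/kg sit between 8.27 and 11.5 CPM, below every mouse of the lower doses, and the 6 mice at 10 and 30 μg/kg sit between 0.862 and 1.54 CPM.

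Ordered by mean level, the groups ran 0.01 μg/kg (39.1 ± 10.7 CPM), 0.1 μg/kg (38.1 ± 6.54), vehicle (33.8 ± 0.837), 0.03 μg/kg (33.5 ± 5.15), 1, 0.3, 3, 10 and lastly 30 μg/kg. Each neighbour in this order overlapped the next in its mice, with the exception of 0.3 against 3 and of 3 against 10 μg/kg. In a bulk sample, fewer cells that carry Pcdh17 and less Pcdh17 RNA per cell cannot be told apart.

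Within the second round of barcodes, where round and dose do not change together, the fall went on. Compared with 3 μg/kg, Pcdh17 was 7.27-fold lower at 10 μg/kg (log2 difference -2.86, SE 0.23) and 9.09-fold lower at 30 μg/kg (log2 difference -3.18, SE 0.24). Between 10 and 30 μg/kg the difference of -0.32 was about as large as its standard error of 0.31. At 1 μg/kg the second-round mice, at 26.98 and 25.03 CPM, were somewhat lower than the first-round mouse, at 30.9 CPM, and far above every mouse at 3 μg/kg. When the fit carried a term for the round, the log2 fold changes were -0.13 at 1, -1.54 at 3, -4.40 at 10 and -4.73 at 30 μg/kg.

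Few genes fell this far. By log2 fold change against vehicle, Pcdh17 was the 80th lowest of 16496 genes at 3 μg/kg, the 3rd lowest at 10 μg/kg and the 21st lowest at 30 μg/kg. At 30 μg/kg, 51 genes were called and at least 4-fold lower, 9 of them at least 16-fold lower. Pcdh17 is counted in both sets as a description, since it was chosen for this fall and its own call is no test. Among these 51 genes none had a smaller standard error: 0.23 for Pcdh17, against 0.77 to 1.72 for the other genes at least 16-fold lower. It was expressed at a middle level, its vehicle mean being above that of 68.3% of the genes tested, and its biological coefficient of variation was 14.5%, larger than that of 82.8% of 2297 genes of like level.

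Cyp1a1, the P450 enzyme whose induction is the standard readout of AhR activation, was used as the measure of the response to TCDD. It had 0 to 2 counts in every mouse from vehicle to 0.1 μg/kg, 5 to 7 counts at 0.3 μg/kg, then 39 to 74 at 1 μg/kg and 550 to 1630 at 3 μg/kg. Counts reached 10468 to 15749 at 10 μg/kg and 23969 to 29287 at 30 μg/kg. The lowest dose with all 3 mice above the vehicle range of Cyp1a1 was thus 0.3 μg/kg, the same dose at which all 3 mice first lay below the vehicle range of Pcdh17. That match rested on the narrow range of 3 vehicle mice. Against all 12 mice up to 0.1 μg/kg, Cyp1a1 was above in 3 of 3 mice at 0.3 μg/kg (0.419 to 0.518 CPM against at most 0.137), whereas Pcdh17 was first below in 3 of 3 at 3 μg/kg.

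The shapes were compared on the linear and on the log scale. On the linear scale, the mean of Cyp1a1 at 3 μg/kg was 3.78% of its mean at 30 μg/kg, whereas Pcdh17 had by then lost most of its level. Cyp1a1 rose by 3.87 log2 units from 1 to 3 μg/kg, by 3.73 from 3 to 10 and by 1.00 from 10 to 30 μg/kg. Pcdh17 fell by 1.51, by 2.86 and by 0.35 log2 units over the same steps. With group means interpolated over log10 dose, Pcdh17 crossed 50% of its vehicle mean at 1.93 μg/kg, and Cyp1a1 crossed 50% of its mean at 30 μg/kg at 9.96 μg/kg. Leaving out each mouse in turn moved the first value between 1.85 and 1.99 and the second between 8.92 and 11.1 μg/kg. Cyp1a1 had no plateau within the doses given, so its 50% dose depends on the highest dose used. The order of the genes turned on the log scale: at 3 μg/kg Pcdh17 had 36.0% of its log2 fold change at 30 μg/kg, and Cyp1a1 had 68.0% of its own, a share that depends on the prior count because its vehicle level is 0 to 1 counts. At 10 μg/kg these shares were 93.5% and 93.3%.

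**Figure D2:**
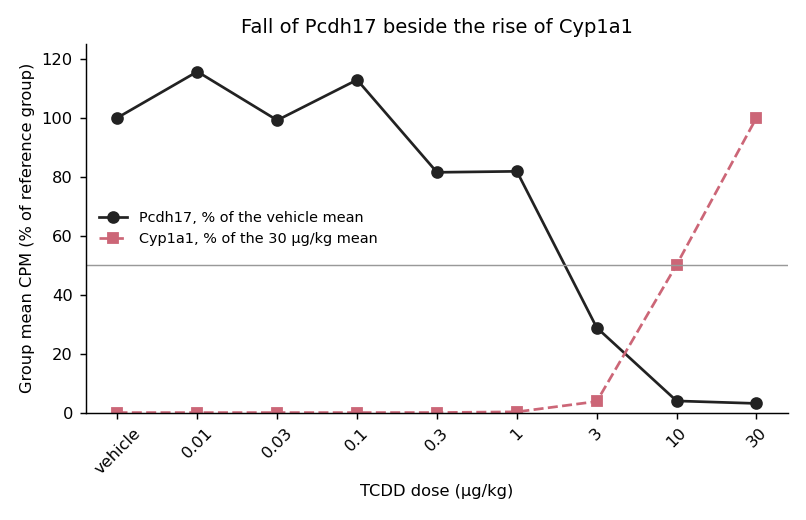
Group mean of Pcdh17 as a percentage of its vehicle mean (circles) and of Cyp1a1 as a percentage of its mean at 30 μg/kg (squares) against TCDD dose in μg/kg, with a line at 50%. Pcdh17 stood at 28.8% at 3 μg/kg, where Cyp1a1 stood at 3.78%.

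The same dose was computed for other genes that fell. Of the 51 genes called and at least 4-fold lower at 30 μg/kg, 48 had a 50% dose, with a median of 1.37 μg/kg. Of these, 30 reached it at a lower dose than Pcdh17 and 17 at a higher one. The 50% dose of Pcdh17 therefore lay within the range of the other genes with large falls.

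The other genes of the AhR battery, the set of enzymes and regulators that AhR induces, gave the background response. Here a gene is called when its adjusted p is under 0.05 (edgeR quasi-likelihood test, Benjamini-Hochberg over all genes tested) and its fold change at least 1.5. Over all genes and in either direction, 0.2% were called at 1 μg/kg, 0.697% at 3, 1.78% at 10 and 6.16% at 30 μg/kg. Of 9 tested genes of the battery, 3 were called higher at 3 μg/kg, where 0.303% of all genes were, 3 at 10 μg/kg (0.812%) and 6 at 30 μg/kg (2.95%). With the barcode round as a term, 1 of the battery, Cyp1a1, was called at 3 μg/kg and 3 at 10 and at 30 μg/kg, and the share of all genes called in either direction was 0.0121%, 0.352% and 4.43%. Ahrr, the repressor of AhR, had log2 fold changes of 1.73 at 3, 5.21 at 10 and 6.21 at 30 μg/kg (adjusted p = 4.8e-15 at 30 μg/kg, edgeR). Ahr itself, at 0.16, and its partner Arnt, at -0.069, were not called at 30 μg/kg.

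Tuft cells are rare chemosensory cells of the epithelium that use a taste-like cascade, in which the G protein Gnat3 and the channel Trpm5 act, and make eicosanoids. Of 16 tested tuft genes, 0 were called lower at 3 μg/kg by edgeR, DESeq2 or limma voom, where 6 had an unadjusted p under 0.05 in that direction and 0.394% of all genes were called lower. The number called lower was 6 at 10 μg/kg, against 0.97% of all genes, and 12 at 30 μg/kg, against 3.21%. In a fit with the barcode round as a term, 3 and 9 were called lower, with list medians of -1.30 at 10 and -1.78 at 30 μg/kg. The median log2 fold change of the list was -0.43 at 3, -0.94 at 10 and -1.51 at 30 μg/kg, beside -0.0026, -0.011 and -0.0022 over all genes. Pcdh17 at these doses had -1.79, -4.65 and -4.97.

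The summed level of the tuft genes was 116 to 143 CPM in vehicle mice, 91.1 to 105 CPM after 3 μg/kg, 64.7 to 79.4 CPM after 10 μg/kg and 47.4 to 68.6 CPM after 30 μg/kg. The mice at 3 μg/kg thus all lay below the vehicle mice, by much less than for Pcdh17. Trpm5 had 22.7, 18.97 and 21.4 CPM in vehicle mice, 17.2, 13.4 and 16.3 at 3, 8.96, 9.50 and 9.10 at 10 and 8.85, 5.60 and 5.69 CPM at 30 μg/kg. Its log2 fold change at 30 μg/kg was -1.64 (SE 0.18, adjusted p = 5e-06, edgeR). Dclk1, the microtubule-associated kinase that marks tuft cells, had 38.8, 35.4 and 43.98 CPM in vehicle mice and 16.3, 8.61 and 14.1 at 30 μg/kg, where its log2 fold change was -1.59 (SE 0.17, adjusted p = 5e-06, edgeR).

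The 4 called tuft genes with the largest changes at 30 μg/kg were Gnat3 (-2.69, SE 0.46), Rgs13, a regulator of G protein signalling (-2.32, SE 0.42), Ltc4s, the leukotriene C4 synthase (-1.72, SE 0.44), and Sh2d6, an SH2 domain protein (-1.71, SE 0.24). With the barcode round as a term, Ltc4s was no longer called. Each stayed closer to its vehicle level than Pcdh17 did. The 4 tested tuft genes that edgeR did not call at 30 μg/kg, named after their values were seen, were Alox5ap (-1.26), Chat (-0.96), Lrmp (-0.20) and Ptgs1 (0.68). Ptgs1, the cyclooxygenase, is the single tested tuft gene with a higher level at that dose, and DESeq2 called it higher. Of the 19 listed genes, Gfi1b, Il25 and Gng13 had too few counts to be tested.

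Within the second round of barcodes, 5 of 16 tuft genes were called lower at 30 than at 3 μg/kg, where 0.242% of all genes were, with a median log2 fold change of -1.12. Between 10 and 3 μg/kg 0 tuft genes were called by edgeR, against 0.0182% of all genes called lower, 7 having an unadjusted p under 0.05 in that direction, and DESeq2 called 1 and limma voom 0. The median over the list for that step was -0.42, beside the -2.86 of Pcdh17.

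Crypt base stem cells renew the epithelium and carry Wnt-dependent genes such as Lgr5, the R-spondin receptor. Of 15 tested stem cell genes, 0 were called lower at 3 μg/kg by edgeR, DESeq2 or limma voom, with 1 at an unadjusted p under 0.05 in that direction. At 10 μg/kg 2 were called lower, against 0.97% of all genes, and at 30 μg/kg 4, against 3.21% (0 and 1 with the barcode round as a term). The medians at 3, 10 and 30 μg/kg were 0.028, -0.17 and -0.21. The summed level of the list overlapped vehicle at 30 μg/kg, at 1557 to 1688 CPM against 1670 to 1854 CPM.

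Lgr5 had 8.66, 10.3 and 9.13 CPM in vehicle mice, 9.38, 7.03 and 9.15 at 3, 4.95, 5.74 and 5.29 at 10 and 4.10, 2.43 and 4.05 CPM at 30 μg/kg. Its mice at 3 μg/kg overlapped the vehicle mice, and those at 10 and 30 μg/kg did not. Its log2 fold change at 30 μg/kg was -1.40 (SE 0.19, adjusted p = 6.1e-05, edgeR), and it was the single stem cell gene called lower at 30 than at 3 μg/kg (-1.27, SE 0.19, adjusted p = 0.00065, edgeR). The other 3 called at 30 μg/kg were Axin2, a negative feedback gene of Wnt signalling (-0.69), Sox9, a crypt transcription factor (-0.69), and Rgmb, a co-receptor of BMP (-0.66). Members of the list also went the other way: Rnf43, a ubiquitin ligase that restrains Wnt receptors, had 0.22 (adjusted p = 0.038, edgeR) and Cdca7 0.34 (adjusted p = 0.025, edgeR), both under the fold threshold and named after their values were seen, and their r with Pcdh17 over the 27 mice was -0.80 and -0.69.

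**Figure D3:**
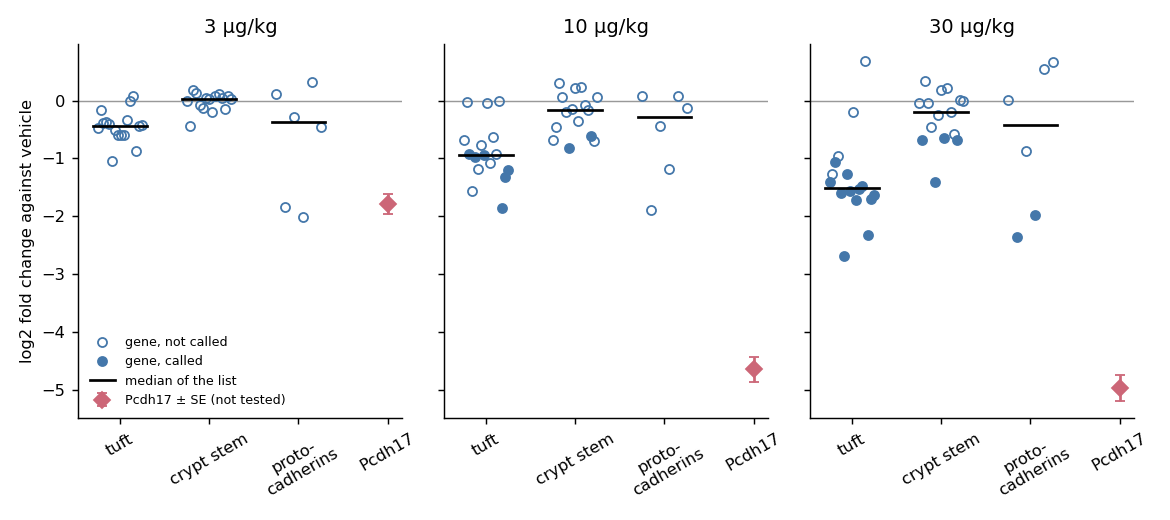
Log2 fold change against vehicle at 3, 10 and 30 μg/kg for the tested genes of the tuft (16), crypt stem (15) and non-clustered protocadherin (6) lists, filled where called, with the median of each list as a bar and Pcdh17 ± SE beside them, not tested. The tuft median went from -0.43 to -1.51 and Pcdh17 from -1.79 to -4.97.

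The remaining non-clustered protocadherins mostly lay at low levels in this tissue. Per kilobase of exon, the vehicle level of Pcdh17 was 2.60 CPM per kb, that of Pcdh1, a protocadherin of epithelial junctions, 18.8, and those of the other 5 tested members between 0.115 and 0.560 CPM per kb. Of these 6 tested members, 0 were called at 3 or 10 μg/kg by edgeR, DESeq2 or limma voom, with 2 lower at 3 and 1 lower at 10 μg/kg at an unadjusted p under 0.05. At 30 μg/kg 2 were called lower, against 3.21% of all genes.

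Those 2 were Pcdh12, a vascular protocadherin (-2.36, SE 0.67), with at most 15 counts in any mouse, and Pcdh20 (-1.98, SE 0.64, adjusted p = 0.048, edgeR), with at most 19. Both calls rested on few reads: leaving out any 1 of the 6 mice of this comparison left 0 or 1 of them called, with 0 without vehicle mouse 2 or 4 or without mouse 66 or 67 at 30 μg/kg, and 1 without vehicle mouse 3 or mouse 65. With a term for the barcode round, 0 were called, and the median of the list turned from -0.43 to 0.30. Pcdh1, the most abundant member, had a log2 fold change of 0.010 (SE 0.089) at 30 μg/kg. Pcdh7 had 0.55, Pcdh9 0.66 and Pcdh18 -0.87, none of them called. Pcdh8, Pcdh10, Pcdh11x, Pcdh15 and Pcdh19 had too few counts to be tested.

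Among 20 tested genes of the wider cadherin superfamily, 2 were called at 30 μg/kg, both higher, where 2.95% of all genes were called higher: Cdh5, the cadherin of endothelial junctions (2.34), and Dchs1, a large cadherin that pairs with Fat4 (1.46). With the barcode round as a term 3 were called, Cdh13 being the third. E-cadherin, Cdh1, had 1188 CPM in vehicle mice and 1172 CPM at 30 μg/kg.

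Of the 11 tested WAVE complex and Ena/VASP genes, through which protocadherin 17 acts on actin, 1 was called at 30 μg/kg, where 6.16% of all genes were called in either direction. This was Cyfip2, a WAVE complex subunit, which was higher (2.74, SE 0.35, adjusted p = 3.5e-05, edgeR). Its paralogue Cyfip1 had 0.18 and the scaffold Nckap1 0.014. Lamellipodin, Raph1, had -0.23, Vasp 0.25 and Enah 0.18. These partners, with the exception of Cyfip2, were not called.

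The genes whose level across the 27 mice was most like that of Pcdh17 were then listed, by Pearson r of log2 CPM among 14565 genes with a mean of at least 1 CPM. All points share the dose and the barcode round, so r describes likeness and has no p. The 10 highest were Samd12 (0.92), Trpm5 (0.91), Dclk1 (0.90), Strip2 (0.90), Avil, the actin-binding protein advillin (0.90), Sh2d6 (0.90), Matk, a tyrosine kinase (0.90), Sh2d7 (0.90), Lgr5 (0.89) and Fgfr4, a receptor of fibroblast growth factors (0.89). Of these, 4 are on the tuft list and 1 on the stem cell list. The ranking depended on the measure: 1 of the 10 genes was among the 10 highest by Spearman rho, and 4 by Pearson r over the second barcode round alone. The median r over the 16 tested tuft genes was 0.75, over the 15 stem cell genes 0.53 and over all genes 0.018.

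The likeness was weak among the lower doses. Over the 16 mice of the first barcode round, r of the same 10 genes ran from -0.13 for Sh2d7 to 0.35 for Avil. Over the 11 mice of the second round, at 1 to 30 μg/kg, r of these genes ran from 0.80 for Fgfr4 to 0.96 for Avil. Their falls were also smaller: at 30 μg/kg Sh2d6 kept 30.4% of its vehicle mean, Trpm5 31.9%, Samd12 45.3% and Fgfr4 67.2%, where Pcdh17 kept 3.11%. At 3 μg/kg the 10 genes kept between 61.4% (Strip2) and 90.9% (Lgr5), where Pcdh17 kept 28.8%.

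**Figure D4:**
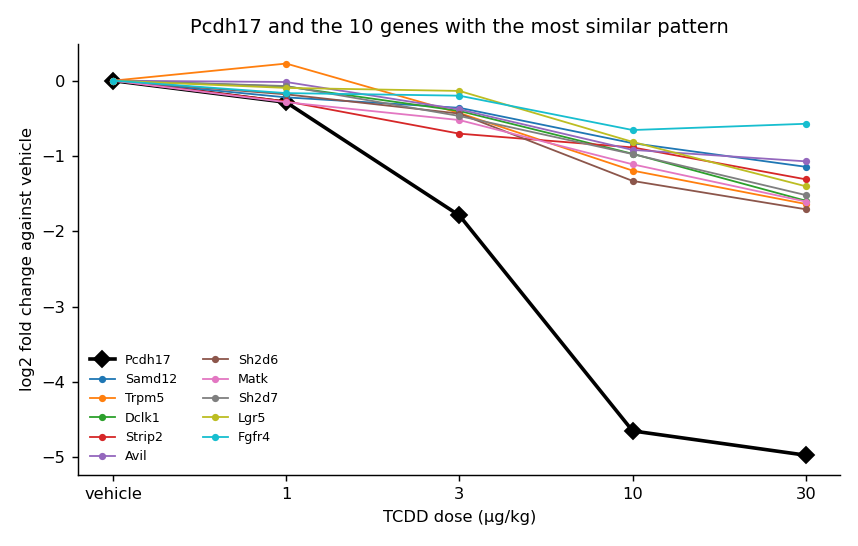
Log2 fold change against vehicle at 1, 3, 10 and 30 μg/kg for Pcdh17 (thick black line) and the 10 genes with the highest Pearson r to it over 27 mice. Pcdh17 reached -1.79 at 3 and -4.97 at 30 μg/kg, and the other genes lay between -0.57 and -1.71 at 30 μg/kg.

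The 5 lowest r over the 27 mice belonged to Exoc3, a subunit of the exocyst (-0.98), Ahrr (-0.98), Cyp1b1 (-0.98), the muscle actin Acta1 (-0.97) and Cyp1a1 (-0.95). Exoc3 rose in a narrow range, from 41.4 ± 1.07 CPM in vehicle mice to 50.01 ± 1.34 at 3, 68.9 ± 1.88 at 10 and 70.3 ± 2.42 CPM at 30 μg/kg (SD, n = 3). Like Pcdh17 it changed little from 10 to 30 μg/kg, while Ahrr, Cyp1b1 and Cyp1a1 went on rising.

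Pcdh17 lies alone on its stretch of chromosome 14 among expressed genes. The nearest tested genes before it, Sugt1, Elf1 and Wbp4, end 4.81 to 4.96 Mb away, and at 30 μg/kg none of these 3 was called, with log2 fold changes of -0.074, -0.035 and -0.26. After it lie Diaph3, a formin, 2.12 Mb away (-0.83, SE 0.22, adjusted p = 0.020, edgeR, called), Tdrd3 at 2.88 Mb (-0.019) and Pcdh20 at 3.93 Mb. No tested gene lay within 2 Mb.

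Markers of other cell types were read over the same doses. The summed level of the 8 smooth muscle genes was 49.3 to 95.6 CPM in vehicle mice and 103 to 682 CPM at 30 μg/kg. Up to 1 μg/kg it did not follow the dose. It was 65.8 to 269 CPM at 0.01, 95.9 to 337 CPM at 0.3 and 18.2 to 314 CPM (median 26.5) at 1 μg/kg. From there the median rose with dose, to 128 CPM at 3, 195 at 10 and 306 at 30 μg/kg. The mice at 3 μg/kg had 105 to 275 CPM and those at 10 μg/kg 171 to 288 CPM. Every mouse at these 3 doses lay above the vehicle mice, though the 3 ranges overlapped. At 30 μg/kg all 8 had a higher level, with a median log2 fold change of 2.34 and an unadjusted p under 0.05 in 8, but edgeR called 0, DESeq2 1 and limma voom 0. With the barcode round as a term, edgeR called 4 of them higher at 10 μg/kg and 8 at 30 μg/kg. The median at 30 μg/kg then went from 2.34 to 6.03. That term rests on 1 first-round against 2 second-round mice at 1 μg/kg, among which these genes ran from 18.2 to 314 CPM. Endothelial genes, 2 of 5 called higher where 2.95% of all genes were, went from 16.2 to 19.9 CPM in vehicle mice to 18.6 to 38.3 CPM at 30 μg/kg. Adipocyte genes, 2 of 4 called higher (0 with the barcode round as a term), with a median log2 fold change of 2.31, had 6.40 to 24.0 CPM in vehicle mice and 21.5 to 147 CPM at 30 μg/kg, but also 46.0 to 102 CPM at 0.01 μg/kg. The absorptive colonocyte genes, 7546 to 8045 CPM in vehicle mice, were at 7255 to 8548 CPM at 30 μg/kg. At that dose 1 of 2 tested neuron and glia genes, 1 of 6 fibroblast genes and 1 of 10 enteroendocrine genes were called higher. Of 10 goblet cell genes 1 was called higher and 1 lower, and of 6 leukocyte genes 0 were called. The shares over all genes were 2.95% higher and 3.21% lower. The part of these lists in the fall of Pcdh17 was not tested.

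Clock genes moved as well. At 1 μg/kg, where Pcdh17 stood at 81.8% of its vehicle mean, 6 of 10 genes driven through E-boxes and D-boxes were called higher and 3 of 4 of the opposite phase lower, against 0.2% of all genes in either direction; with the barcode round as a term these were 6 and 0. Of the same 10 genes, 9 were called higher at 3 and 10 μg/kg and 10 at 30 μg/kg, and of the 4 genes of the opposite phase 3, 3 and 4 were called lower. Over all genes 0.303%, 0.812% and 2.95% were called higher and 0.394%, 0.97% and 3.21% lower at these doses. With the barcode round as a term, 1, 5 and 9 of the first side were called higher and 0, 0 and 4 of the second lower. The medians of the first side were then 2.98, 3.15 and 3.25, against 2.18, 2.45 and 2.70 without the term. Those of the second side were -2.20, -2.03 and -2.50, against -2.22, -2.05 and -2.43. Summed levels on the first side were 177 to 193 CPM in vehicle mice and 319 to 394 CPM at 0.3 μg/kg. They were 628 to 883 CPM at 1 and 745 to 876 CPM at 3 μg/kg. All 3 mice first left the vehicle range at 0.3 μg/kg, as for Pcdh17. The range of all 12 mice up to 0.1 μg/kg reached 704 CPM, in a mouse at 0.01 μg/kg. All 3 mice first left that range at 3 μg/kg, again as for Pcdh17. At 10 and 30 μg/kg the summed levels were 869 to 934 and 805 to 933 CPM. Clock genes thus stood at nearly one level from 3 to 30 μg/kg, 0 of 14 being called by edgeR, DESeq2 or limma voom for 10 or 30 against 3 μg/kg, with 1 at an unadjusted p under 0.05 for 30 against 3. All genes called in either direction were 0.0485% for 10 and 0.461% for 30 against 3 μg/kg. Over the same doses Pcdh17 was lower by 9.09-fold, and the part of the clock genes in this was not tested.

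Variation between mice at the low doses was described as well. Over the 15 mice of the vehicle to 0.3 μg/kg groups, log2 CPM of Pcdh17 was set against 8 measures. These are values of the mice in which the gene was chosen, so r (Pearson) and rho (Spearman) are given with no p. The mean level of the tuft genes had r = 0.071 (rho = 0.039), or -0.34 without the 2 mice farthest from the median, and that of the stem cell genes r = 0.38 (rho = 0.34), the latter 0.066 without the 2 farthest. The distal colon Hox genes, which mark position along the gut, had r = -0.53 (rho = -0.47), or -0.41 without the 2 farthest mice, and library size r = -0.47 (rho = -0.49), or -0.29 without them. The clock score had r = 0.24 (rho = -0.057), which rested on the 2 farthest mice, being -0.35 without them. The smooth muscle, neuron and glia, and endothelial scores had r between -0.32 and -0.16.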

How the data were processed

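The authors deposited raw counts per gene for each of 27 mice. The submitters' processing notes name FastQC 0.11.3, Trimmomatic 0.33, TopHat2 2.1.0, SAMtools 1.2.0, HTSeq 0.6.1, DESeq and build GRCm38. Libraries were made with a NuGen Ovation mouse kit. Annotation release and use of strand are not given in the sources used here. Of 46078 gene rows, 45143 matched a symbol. Reads in no feature were 29.1 to 33.3% of each table and reads aligned more than once 30.7 to 37.1%, and both were left out.

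Genes were filtered with filterByExpr (minimum count 10), scaled by TMM and fitted with the edgeR 4.0.16 quasi-likelihood model (R 4.3.3) over all 9 groups, with Benjamini-Hochberg adjustment over 16496 genes. CPM are these counts scaled to library size, and log2 CPM used a prior count of 2. The SE of a log2 fold change is its size divided by the root of its F value. The authors' empirical Bayes method was not used here. Alternatives included DESeq2 1.42.0, limma 3.58.1 voom and a term for the barcode round, which was read from the order of barcodes over mouse numbers. On simulated counts for 30 μg/kg against vehicle over 16049 genes, 92% of 4-fold and 69% of 2-fold changes were recovered.

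The gene and the gene lists were chosen with earlier results of these data known. Named genes are those of the lists with the largest changes among called genes (up to 4 per list, any tested gene in lists under 12), the 10 most and 5 least alike by r, and the 3 nearest tested genes on each side.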

Additional observations from a re-analysis of the deposited data

How the results depend on the processing

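No paired analysis was possible because replicate numbers in the labels are the mouse numbers, and no 2 groups have one in common. Under RLE or total-count scaling, no filter, DESeq2, limma voom and fits of the 2 groups alone, the log2 fold changes of Pcdh17 moved by less than the spread between replicates. A term for the barcode round gave -0.13 at 1, -1.54 at 3, -4.40 at 10 and -4.73 at 30 μg/kg. Leaving out each mouse in turn gave -0.38 to -0.22 at 1 μg/kg, -1.93 to -1.68 at 3 μg/kg, -4.75 to -4.57 at 10 μg/kg and -5.23 to -4.85 at 30 μg/kg, the lowest without mouse 65. Genes called at 1 μg/kg were 33, and 59 with no filter, 72 by DESeq2, 12 with the round term and 3 to 24 leaving out 1 mouse. At 3 μg/kg they were 115, and 180, 198, 2 and 48 to 97 in the same order, with 231 on adjusted p alone. At 10 μg/kg they were 294, and 58 with the round term, 532 on adjusted p alone and 163 to 228 leaving out 1 mouse. At 30 μg/kg they were 1016, and 1818 on adjusted p alone and 590 to 1084 leaving out 1 mouse. The round term left 3 tuft genes and 0 stem cell genes called lower at 10 μg/kg, and 1 stem cell gene and 0 protocadherins at 30 μg/kg. Leaving out 1 mouse left 0 to 2 stem cell genes at 10 μg/kg (0 without vehicle mouse 3 or mouse 57), 2 to 4 at 30 μg/kg (2 without mouse 66) and 0 to 1 protocadherins. Tuft genes called lower then numbered 4 to 5 at 10 μg/kg and 10 to 12 at 30 μg/kg. Of the 10 genes most alike, 1 was shared when ranked by Spearman rho and 4 in the second round alone. The relation to neuron and glia genes turned to r = 0.44 with values centred on the dose group and to 0.19 over 12 mice, and that to endothelial genes to 0.070 when centred. In these 2 settings the relation to clock genes went from 0.24 to 0.64 and 0.65, and that to tuft genes from 0.071 to 0.43 and 0.25, and without the 2 farthest mice that to clock genes was -0.068 and 0.17. The cause of these moves was not tested. With 10 to 19 counts of Pcdh17 per mouse at 10 and 30 μg/kg, counting error limits a comparison of these 2 doses.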

Other observations

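Exoc3, which had the lowest Pearson r with Pcdh17 over the 27 mice (-0.98; Cyp1a1 was lower by Spearman rho, at -0.90 against -0.85), lies next to Ahrr on chromosome 13, at chr13:74169488-74208732 beside chr13:74211118-74292331, both on the minus strand in GENCODE M21 on GRCm38. Their log2 fold changes at 30 μg/kg were 0.76 for Exoc3 (SE 0.070) and 6.21 for Ahrr (SE 0.23).

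Acta1, the α-actin of skeletal muscle, rose from 3.83 ± 1.11 CPM in vehicle mice to 18.2 ± 1.94 at 3, 66.8 ± 15.6 at 10 and 142 ± 23.4 CPM at 30 μg/kg (SD, n = 3). At 30 μg/kg its adjusted p was 1.9e-12 (edgeR). Of 8 smooth muscle genes, 0 were called by edgeR and limma voom and 1 by DESeq2, with 8 at an unadjusted p under 0.05. With the barcode round as a term, which rests on the mice at 1 μg/kg, edgeR called 8 of them higher.

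The promoter windows of other genes named beside Pcdh17 were searched for GCGTG in the same way. Ahrr held 3 cores and 1 of the longer motif TNGCGTG, Cyp1b1 held 1 core, Trpm5 held 0, and the 2 RefSeq windows of Dclk1 held 1 and 0.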
